A study of Mus musculus with 6 samples.

Results

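The ankyrin and spectrin genes Ank1, Ank2, Ank3, Sptan1, Sptb, Sptbn1 and Sptbn4 were taken by symbol, through their Ensembl gene IDs, from catalogues of transcript structure. All 7 were listed in every library, out of 15939 genes listed in at least 1. Total RNA came from the nucleus accumbens of C57BL/6N mice, a part of the ventral striatum involved in reward. The mice had been trained in conditioned place preference (CPP), in which a chamber is paired with an injection. The morphine group (libraries 4, 5 and 6) was injected with morphine, an opioid receptor agonist, and the saline group (libraries 1, 2 and 3) with saline. Each group had 3 libraries, drawn from 6 mice per group. How mice map to libraries is not given in the labels, nor are age, sex, dose or the time of dissection, so p-values measure the spread between libraries, which may be technical.

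Ankyrins are adaptors. Their N-terminal ankyrin repeats hold membrane proteins such as voltage-gated sodium channels, neurofascin and anion exchangers, and a central domain binds β-spectrin. α- and β-spectrin form long tetramers that cross-link short actin filaments into a lattice under the plasma membrane, which in axons is periodic. Ankyrin-G, the product of Ank3, and βIV-spectrin, the product of Sptbn4, build the axon initial segment and the nodes of Ranvier, where sodium channels cluster. Ankyrin-B, from Ank2, lies along axons. Ankyrin-R, from Ank1, and βI-spectrin, from Sptb, are best known from the red blood cell, and both are also made in neurons.

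The deposited catalogues list events, not expression. An event is a first exon, a last exon, a skipped exon, a retained intron or an alternative exon end, given by its splice positions in transcripts assembled from 1 library. A value below is a number of distinct events, so it says nothing about the amount of RNA. An event not listed was not recorded, which does not show that the transcript was absent. In bulk tissue, fewer cells of a type and less RNA per cell cannot be told apart. Read depth behind the catalogues is unknown, so no counting interval or detection limit is given. Positions are on GRCm38 and exons are named by the GENCODE M21 annotation of that build. The morphine libraries listed 57981, 56546 and 56416 events and the saline libraries 58007, 54641 and 57132.

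All 8 chosen markers of medium spiny neurons, the main neuron type of this region, and all 4 general neuron markers were listed in every library. Of 29 markers of astrocytes, oligodendrocytes, microglia, endothelium, ependyma and red blood cells, 25 were listed in every library as well, and the endothelial gene Cldn5 was listed in none. The haemoglobin genes Hba-a1, Hba-a2, Hbb-bs and Hbb-bt were among those listed in all 6 libraries. Ank1 and Sptb are red cell genes too, and the part of blood in their events was not tested. Groups did not overlap for 4 of the 41 marker genes, against 3.07% of all tested genes, and these are named because they moved with the groups. Event numbers of Rgs9 and Slc4a1 were higher in morphine, and those of Syt1 and the ependymal gene Ccdc39 were lower. Limma called 0.638% of all tested genes at an adjusted p under 0.05. Among the markers it called Syt1 (4 events in each morphine library and 5 in each saline library, adjusted p = 0.0038) and Slc4a1. Both genes have identical counts within each group, which leaves limma little spread to weigh. Their exact two-sided permutation p was 0.1, the smallest that 3 against 3 libraries allow. The part of these markers in the results on ankyrins and spectrins was not tested.

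The sequences that carry the result are those of the coding cassette exons, which transcripts of the same library either kept or left out. Shown, because they are the recurrent alternatives of these proteins, are all 15 annotated, wholly coding single exons of at most 300 bases that at least 3 libraries listed as skipped, 12 of them in all 6. Capitals mark the exon, and the 10 lower-case bases on each side belong to the neighbouring exons to which it is spliced. They were read 5′ to 3′ from the GENCODE M21 transcripts.
Ank3, 24-base exon, chr10:69823078-69823101, plus strand, listed in 6 libraries: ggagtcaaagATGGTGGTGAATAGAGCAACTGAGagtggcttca
Ank3, 63-base exon, chr10:69904448-69904510, plus strand, listed in 6 libraries: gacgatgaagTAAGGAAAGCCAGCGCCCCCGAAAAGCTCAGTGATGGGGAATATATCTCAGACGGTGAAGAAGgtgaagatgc
Ank3, 54-base exon, chr10:69920438-69920491, plus strand, listed in 4 libraries: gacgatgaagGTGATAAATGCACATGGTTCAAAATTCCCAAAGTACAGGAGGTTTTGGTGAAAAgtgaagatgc
Ank3, 33-base exon, chr10:69953440-69953472, plus strand, listed in 6 libraries: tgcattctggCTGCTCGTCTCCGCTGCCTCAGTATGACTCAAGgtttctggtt
Ank3, 27-base exon, chr10:69980824-69980850, plus strand, listed in 6 libraries: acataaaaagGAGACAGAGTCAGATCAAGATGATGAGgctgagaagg
Ank2, 183-base exon, chr3:126928665-126928847, minus strand, listed in 6 libraries: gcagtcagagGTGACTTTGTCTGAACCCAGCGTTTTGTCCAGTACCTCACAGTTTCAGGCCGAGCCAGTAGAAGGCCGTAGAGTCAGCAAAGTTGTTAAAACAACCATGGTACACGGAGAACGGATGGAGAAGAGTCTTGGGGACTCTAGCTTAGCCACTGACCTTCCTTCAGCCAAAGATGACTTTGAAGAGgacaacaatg
Ank2, 99-base exon, chr3:126963383-126963481, minus strand, listed in 6 libraries: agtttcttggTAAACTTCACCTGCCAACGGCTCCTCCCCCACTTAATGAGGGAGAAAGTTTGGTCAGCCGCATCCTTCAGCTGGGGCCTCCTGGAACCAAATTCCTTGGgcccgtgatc
Ank2, 36-base exon, chr3:126971003-126971038, minus strand, listed in 6 libraries: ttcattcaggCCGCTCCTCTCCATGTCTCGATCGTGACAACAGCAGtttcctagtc
Ank2, 99-base exon, chr3:127012673-127012771, minus strand, listed in 6 libraries: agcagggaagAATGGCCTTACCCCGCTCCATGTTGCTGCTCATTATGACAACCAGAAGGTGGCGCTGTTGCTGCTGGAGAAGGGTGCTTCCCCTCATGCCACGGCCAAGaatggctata
Ank2, 96-base exon, chr3:127096802-127096897, minus strand, listed in 3 libraries: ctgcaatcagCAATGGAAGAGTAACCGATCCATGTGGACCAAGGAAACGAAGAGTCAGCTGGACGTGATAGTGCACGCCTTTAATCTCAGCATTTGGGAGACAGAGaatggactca
Ank2, 99-base exon, chr3:127248134-127248232, minus strand, listed in 6 libraries: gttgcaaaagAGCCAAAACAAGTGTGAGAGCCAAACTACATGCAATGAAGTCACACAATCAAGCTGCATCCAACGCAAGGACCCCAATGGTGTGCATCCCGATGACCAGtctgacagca
Ank1, 24-base exon, chr8:23110347-23110370, plus strand, listed in 3 libraries: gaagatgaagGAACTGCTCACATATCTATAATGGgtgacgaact
Sptan1, 60-base exon, chr2:30001100-30001159, plus strand, listed in 6 libraries: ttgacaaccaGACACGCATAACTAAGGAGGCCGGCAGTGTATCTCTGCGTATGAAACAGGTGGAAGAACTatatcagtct
Sptan1, 15-base exon, chr2:30014158-30014172, plus strand, listed in 6 libraries: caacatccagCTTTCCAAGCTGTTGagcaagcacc
Sptan1, 63-base exon, chr2:30028644-30028706, plus strand, listed in 6 libraries: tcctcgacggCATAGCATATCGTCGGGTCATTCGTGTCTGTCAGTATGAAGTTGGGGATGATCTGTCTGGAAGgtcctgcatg

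The length of each of these 15 exons is a multiple of 3, so the reading frame is the same with and without it. Their GC content ran between 37.0% and 58.3%. Counting every single skipped exon that any library listed, the 7 genes had 29, of which 27 (93.1%) had a length divisible by 3. Over all listed genes this held for 4408 of 8445 exons (52.2%). Both exceptions lay outside wholly coding exons of these genes. They were the 61-base Ank2 exon chr3:127339132-127339192, which is partly coding, and a 56-base exon on the strand opposite to Sptbn1. Among exons listed as skipped in all 6 libraries, 17 of 17 in these genes kept the frame, against 1465 of 2084 (70.3%) over all genes. These 17 include 3 overlapping forms of the giant Ank3 exon, and so mark 15 places in the genome. Forms that share bases are not independent, and the exons of all genes were not limited to coding ones. The shares are given as a description, with no test. Lengths of the 29 exons spread widely. At most 60 bases long were 11 of the 29 (37.9%), against 1771 of 8445 over all genes. Over 2000 bases long were 5 of the 29, against 147 of 8445. These 5 are the giant Ank2 exon and overlapping forms of the giant Ank3 exon. The median was 93 bases in the 7 genes and 102 over all genes.

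Structures of these genes recurred between libraries. Of their 108 distinct events, 42 (38.9%) were listed in all 6 libraries and 29 (26.9%) in 1 library. Over all genes 26901 of 128790 events (20.9%) were in all 6 and 65299 (50.7%) in 1. Because events were counted by type, an exon form can count more than once. Forms of the giant Ank3 exon, for example, were listed both as skipped and as alternative exon ends. By class, 17 of 37 skipping events (45.9%) and 14 of 29 first exons (48.3%) of the 7 genes were in every library, against 18.3% and 29.8% over all genes. Last exons went the other way, with 3 of 14 (21.4%) in every library against 32.1%. The 7 genes are also better annotated, with 88 of 108 events (81.5%) made of annotated sites or exons, against 63.6% over all genes. The part of annotation in this recurrence was not tested.

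**Figure D1:**
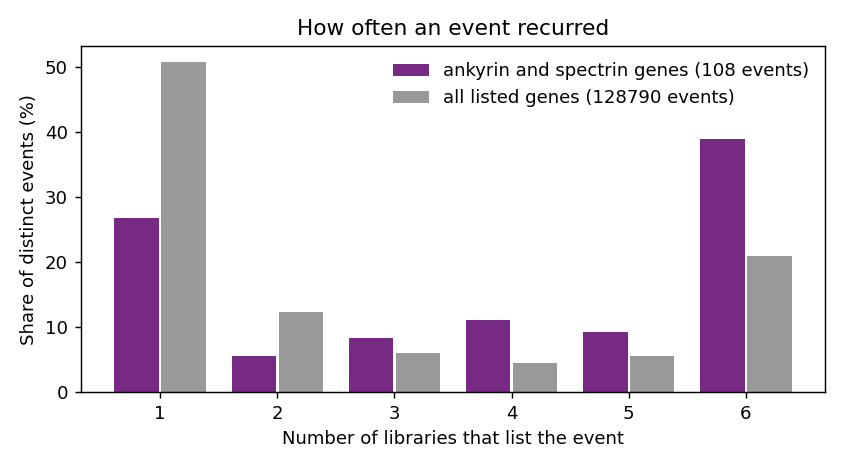
Share of distinct events (%) by the number of libraries that list them, for the ankyrin and spectrin genes (108 events) and for all listed genes (128790 events). The ankyrin and spectrin genes have 38.9% of events in all 6 libraries and 26.9% in 1, against 20.9% and 50.7%.

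Ank3 (chr10:69398773-70027438, plus strand) had the most events of the family. It was listed with 27, 23 and 27 events in the morphine libraries and 25, 19 and 27 in the saline libraries, a mean above that of 99.8% of all listed genes. The low value is that of saline replicate 2, and the groups overlap. Of its 37 distinct events 16 were in all 6 libraries. First exons ending at 69534284 and 69706925 of chromosome 10 were listed everywhere. The first of them starts 14 annotated transcripts and the other 3, so that transcripts from both starts were assembled in both groups. A further 3 first exons, at 69898139, 69899089 and 69926191, were listed in saline replicate 3 alone.

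The giant exon of Ank3 encodes the long insert of the giant forms of ankyrin-G, which neurons make and which organize the axon initial segment. It was listed as a cassette exon in every library and in several forms. The form of 7674 bases, chr10:69986089-69993762, is annotated and was listed in all 6 libraries. A form of 7680 bases begins 6 bases further upstream, at 69986083. It is not annotated and was listed in 3 morphine and 2 saline libraries, missing from saline replicate 3. Shorter forms begin at that same upstream site. The annotated form of 2550 bases ends at 69988632 and the form of 6393 bases, which is not annotated as a whole, ends at 69992475. Both occurred in every library. All 4 lengths are multiples of 3. Every form is flanked by the same splice sites, at 69982197 upstream and 69994372 downstream, and the transcript that joins these directly, without the giant exon, was assembled in all 6 libraries too. A further coding exon of Ank3, downstream of the giant exon, was listed in all 6 libraries in a long form of 679 bases, chr10:70001923-70002601, and in a form of 91 bases that starts at 70002511. An unannotated exon of 8364 bases, chr10:69986083-69994446, was listed in morphine replicates 4 and 6 and in saline replicate 1. There it was listed as retention of the 5739 bases after the 2550-base form, which include sequence of the longer forms. The same libraries also listed it as retention of the 609-base intron after the forms that end at 69993762.

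Ank2 (chr3:126921612-127499350, minus strand) carries the corresponding giant exon of ankyrin-B, which is used in the long axonal form. That exon, 6198 bases at chr3:126941610-126947807 on the minus strand, was listed as skipped in all 6 libraries in 1 form. Over all genes 147 single skipped exons were longer than 2000 bases and 16 of these were listed in every library. Of these 16, 4 were the Ank2 exon and the constant forms of the Ank3 exon.

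**Figure D2:**
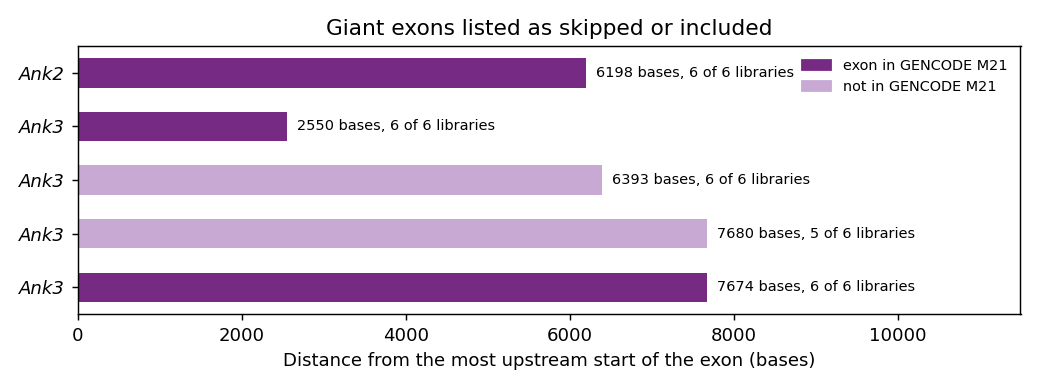
Forms of the giant cassette exons of Ank2 and Ank3 drawn to scale in bases from the most upstream start of each exon, with dark bars for annotated exons and light bars for forms not annotated as a whole. The Ank2 exon has 1 form of 6198 bases, and Ank3 has 4 forms of 2550 to 7680 bases, of which the 7680-base form is in 5 libraries and the others are in 6.

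Ank2 was listed with 18, 15 and 20 events in the morphine libraries and 21, 20 and 18 in the saline libraries. The lowest value is that of morphine replicate 5, and the groups overlap. Counting overlapping forms once, Ank2 had 6 places listed as single skipped exons in every library. No gene had more among the 1556 genes with any such place, and 3 other genes had as many. Ank3 had 5 and Sptan1 had 4. Besides the giant exon, the Ank2 places were the exons of 183, 99, 36, 99 and 99 bases shown above. A pair of neighbouring exons of 99 bases each, chr3:127029219-127029317 and chr3:127029475-127029573, were listed as left out together in morphine replicates 4 and 6 and in saline replicate 1. The 99-base exon chr3:127248134-127248232 was also left out together with the 61-base exon in morphine replicates 5 and 6 and in saline replicates 1 and 2. The same libraries listed the 61-base exon as skipped alone. An unannotated exon of 93 bases, chr3:126930561-126930653, was listed in 1 morphine and 2 saline libraries.

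First exons of Ank2 numbered 6, 5 and 7 in the morphine libraries and 6, 7 and 7 in the saline libraries. They lay far apart. Those with splice sites at 127408845, 127339132, 127225764, 127161679 and 126998324 of chromosome 3 were listed in all 6 libraries, and the most upstream start, at 127498668, in 2 morphine and 3 saline libraries. The site at 127339132 belongs to the 61-base cassette exon and is not an annotated first exon. Transcripts that start at 126998324 lack the exons upstream of it. The annotated transcript from that site, Ank2-201, has 25 exons and a coding length of 3150 bases, against 46 exons and 11700 bases for Ank2-208.

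Ank2 and Ank3 are paralogs, and several of their alternative exons sit at matching positions. These matches were picked out after the values were seen. In both genes a 24-base exon follows an exon of 186 bases and precedes one of 99 bases. The 2 short exons are identical at 19 of 24 bases, and the 186-base and 99-base neighbours at 138 of 186 and 80 of 99. The listing differed: the Ank3 exon was listed as skipped in all 6 libraries, and the Ank2 exon in morphine replicate 6 alone. Its sequence is given to compare with the 24-base Ank3 exon above.
Ank2, 24-base exon, chr3:127052226-127052249, minus strand, listed in 1 library: ATGATGGTGAACAGGACAACAGAG

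The second matching position is an exon of 103 bases that both genes also use in a form of 88 bases, by starting 15 bases later. In Ank3 both forms were listed in all 6 libraries. In Ank2 both were listed in 5, missing from morphine replicate 5. The sequences below are shown because the optional part is the most alike. Capitals mark the 15 bases that the short form leaves out, which are identical at 14 of 15 positions, whereas the remaining 88 are identical at 50.
Ank2, 103-base exon, chr3:126976845-126976947, minus strand, listed in 5 libraries: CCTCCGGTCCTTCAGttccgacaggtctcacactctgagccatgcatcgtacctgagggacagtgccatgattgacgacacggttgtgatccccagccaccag
Ank3, 103-base exon, chr10:69932394-69932496, plus strand, listed in 6 libraries: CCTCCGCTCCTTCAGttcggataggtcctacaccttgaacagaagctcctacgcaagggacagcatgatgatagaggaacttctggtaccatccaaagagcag
At the third position, a cassette exon stands just upstream of a 225-base exon in each gene. It has 36 bases in Ank2, after an exon of 104 bases, and 33 in Ank3, after one of 107. Both cassette exons were listed as skipped in all 6 libraries, and their 225-base neighbours are identical at 160 of 225 bases.

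Ank1 shares 1 such position with Ank3. Its 24-base cassette exon follows an exon of 73 bases, and in Ank3 the exons of 63 and 54 bases also follow an exon of 73 bases. These 73-base exons are identical at 46 positions. The downstream neighbours differ in length, with 97 bases in Ank1 and 124 in Ank3, so the match is on the upstream side only. The 24-base Ank1 exon was listed as skipped in morphine replicates 4 and 5 and in saline replicate 1. The Ank3 exon of 63 bases was listed everywhere, and that of 54 bases in all 3 morphine libraries and in saline replicate 3. In morphine replicates 5 and 6 and saline replicate 3 the 54-base exon was skipped by a junction from the 73-base exon. In morphine replicate 4 it was skipped by a junction from the 63-base exon, and both exons were also listed as left out together there.

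Ank1 (chr8:22974844-23150497, plus strand) was listed with 10, 11 and 4 events in the morphine libraries and 10, 11 and 7 in the saline libraries. The low value is that of morphine replicate 6, whose 4 events are those that every library listed. These are first exons at 22975261 and 23058670 of chromosome 8, a last exon at 23148281, and retention of a 78-base intron, from 23132484 to 23132561, within an annotated coding exon of 538 bases. The remaining recurrent first exon, at 23139495, starts the short annotated transcripts Ank1-201, Ank1-208 and Ank1-217. They have 4, 5 and 3 exons and coding lengths of 468, 465 and 328 bases, which leaves out the ankyrin repeats, whereas Ank1-202 has 45 exons and 5544 bases. Such small ankyrins are known from the sarcoplasmic reticulum of muscle. This first exon was listed in morphine replicates 4 and 5 and in all 3 saline libraries. The Ank1 exon of 387 bases, chr8:23132097-23132483, which ends at the retained intron, was listed as skipped in morphine replicates 4 and 5 and in saline replicates 1 and 2. The same libraries listed the exon beyond that intron in a form of 73 bases and in the form of 538 bases that includes the intron.

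Sptan1 (chr2:29965560-30031451, plus strand) encodes αII-spectrin, the α subunit of all non-erythroid spectrin tetramers. It was listed with 6, 7 and 8 events in the morphine libraries and with 6 in each saline library. Morphine replicate 4 equals the saline libraries and replicates 5 and 6 are higher. The surplus consisted of events seen in 1 library each, namely first exons ending at 29978616 of chromosome 2 in morphine replicate 5 and at 29968826 in replicate 6, and a retained intron of 238 bases in replicate 6. Both of these first exons begin at 29965717, within the usual first exon, and run on past its end at 29965785. The 4 skipping events of Sptan1 did not vary: the exons of 51, 60, 15 and 63 bases were listed as skipped in all 6 libraries. The 60-base exon encodes the known insert beside the SH3 domain of αII-spectrin. The 51-base exon, chr2:29968776-29968826, lies between the first exon, which ends at 29965785 and was in all 6 libraries, and the exon beginning at 29978377 and is only partly coding, so its sequence is not shown.

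The β-spectrin genes Sptb, Sptbn1 and Sptbn4 were listed with 0 skipped exons on their own strand in every library. Their alternatives were first and last exons and 2 retained introns. Sptbn4 (chr7:27356383-27447686, minus strand), for βIV-spectrin, was listed with 5, 3 and 6 events in the morphine libraries and 4, 5 and 4 in the saline libraries. First exons at 27446463 and at 27396489 of chromosome 7, on the minus strand, were listed in all 6 libraries. Annotated transcript Sptbn4-201 starts at the first of these and has 36 exons and a coding length of 7683 bases. Sptbn4-203 starts at the other and has 19 exons and 3723 bases, so starts of the long and of the short, N-terminally truncated type were assembled together in every library. Both types end in the same last exon, at 27357450. A retained intron of 873 bases was listed in 2 morphine and 2 saline libraries.

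Sptbn1 (chr11:30099395-30268175, minus strand), for βII-spectrin, the main β-spectrin of axons, was listed with 4, 5 and 3 events in the morphine libraries and 4, 4 and 3 in the saline libraries. Its first exon at 30267948 of chromosome 11 was in all 6 libraries. The first exon at 30267013 was in 3 morphine and 2 saline libraries, and that at 30197724 in 2 and 2. The last exon at 30100714, of the long annotated transcript Sptbn1-201, was listed in 2 morphine and 2 saline libraries. Morphine replicate 5 and saline replicate 1 instead listed under Sptbn1 a last exon at 30279440 on the opposite strand, outside the annotated gene and overlapping the non-coding gene Gm8098. Last exons of the shorter transcripts Sptbn1-203 and Sptbn1-204 were listed in 0 libraries.

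Sptb (chr12:76580488-76710547, minus strand), for βI-spectrin, had the fewest events, with 3, 2 and 3 in the morphine libraries and 3, 3 and 2 in the saline libraries. The single first exon, at 76709935 of chromosome 12 on the minus strand, and the last exon at 76583392 were in all 6 libraries. The alternative last exon at 76597801, which ends the annotated transcript Sptb-202 (32 exons, against 36 for Sptb-201), was listed in 2 morphine and 2 saline libraries.

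**Figure D3:**
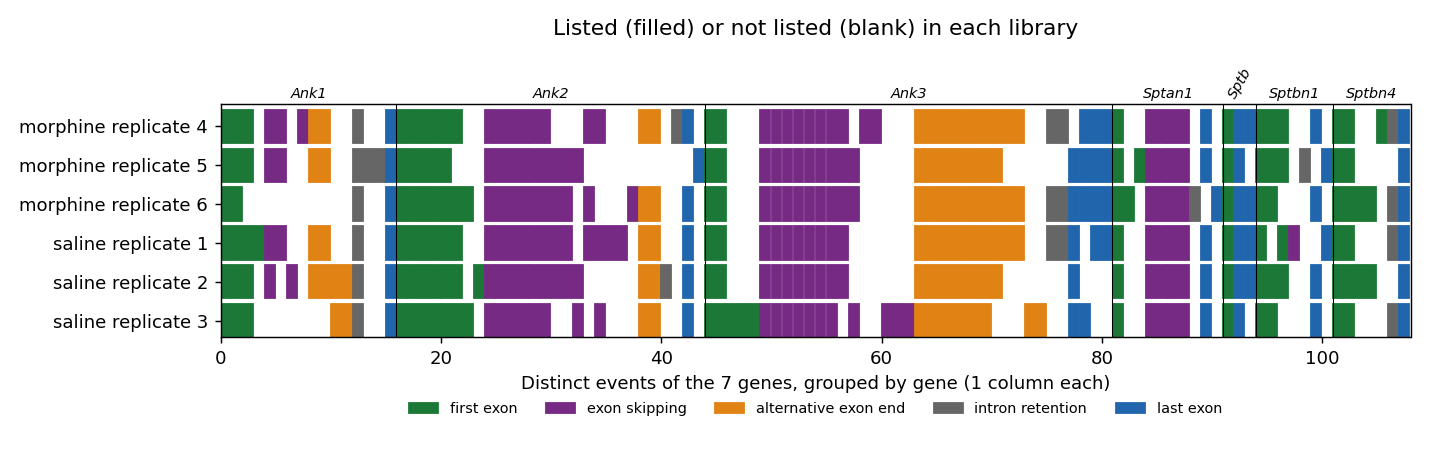
Each column is 1 of the 108 distinct events of the 7 genes and each row 1 library, with morphine above saline, and a filled cell means that the library lists the event, coloured by class. The 42 columns filled in all 6 rows include first exons in each gene and the skipped exons of Ank2, Ank3 and Sptan1, and no column is filled in all 3 rows of 1 group and blank in the other.

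The comparison of morphine with saline asks whether these structures differ after morphine conditioning. The number of events did not pass the test in any of the 7 genes. Limma on log2(events + 0.5), with adjustment over 15040 tested genes, called 0 of 7 genes at an adjusted p under 0.05 and 0 at an unadjusted p under 0.05. It called 0.638% of all tested genes at the adjusted threshold, and 480 of the 15040 had an unadjusted p under 0.05. Groups that did not overlap were found in 0 of 7 genes, against 3.07% of all tested genes. Of all tested genes, 1.64% had the morphine libraries above and 1.43% the saline libraries above. With shares this small, counts of 0 among 7 genes say little about these genes.

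On the log2 scale Ank1 had the largest of the 7 differences. It averaged 8.33 ± 3.79 events in morphine and 9.33 ± 2.08 in saline (SD, 3 libraries each; log2 ratio -0.25, SE 0.45, limma adjusted p = 1). Ank2 averaged 17.7 ± 2.52 in morphine and 19.7 ± 1.53 in saline (log2 ratio -0.16, SE 0.13, limma adjusted p = 0.905). Ank3 averaged 25.7 ± 2.31 in morphine and 23.7 ± 4.16 in saline (log2 ratio 0.13, SE 0.16, limma adjusted p = 0.998). The exact two-sided permutation p was 0.9 for Ank1, 0.5 for Ank2 and 0.7 for Ank3, where 0.1 is the smallest that 3 against 3 libraries allow.

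Sptan1 averaged 7 ± 1 events in morphine and 6 ± 0 in saline (log2 ratio 0.20, SE 0.11, limma adjusted p = 0.905, exact permutation p = 0.4). The log2 ratio was 0.10 for Sptbn1 (SE 0.21), 0.06 for Sptbn4 (SE 0.27) and 0 for Sptb (SE 0.22), each with an exact permutation p of 1 and a limma adjusted p of 1. Over the 7 genes the median log2 ratio was 0.06, and over all tested genes it was 0. In Ank1, Ank3, Sptb, Sptbn1 and Sptbn4 the difference of the means is smaller than the SD of either group. In Ank2 it lies between the morphine and the saline SD. In Sptan1 it equals the morphine SD, and the saline libraries had no spread. A missed threshold does not show that the groups are alike: in Ank1 the SE exceeds the difference, and 1 library, morphine replicate 6, sets its direction. Without that library the log2 ratio of Ank1 was 0.18. That of Ank3 was -0.021 without saline replicate 2. Sptbn1 and Sptbn4 also changed sign when single libraries were left out. The Ank2 ratio was -0.048 without morphine replicate 5. That of Sptan1 was 0.069 with annotated events only, and that of Sptbn1 was 0.28 without events on the opposite strand.

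**Figure D4:**
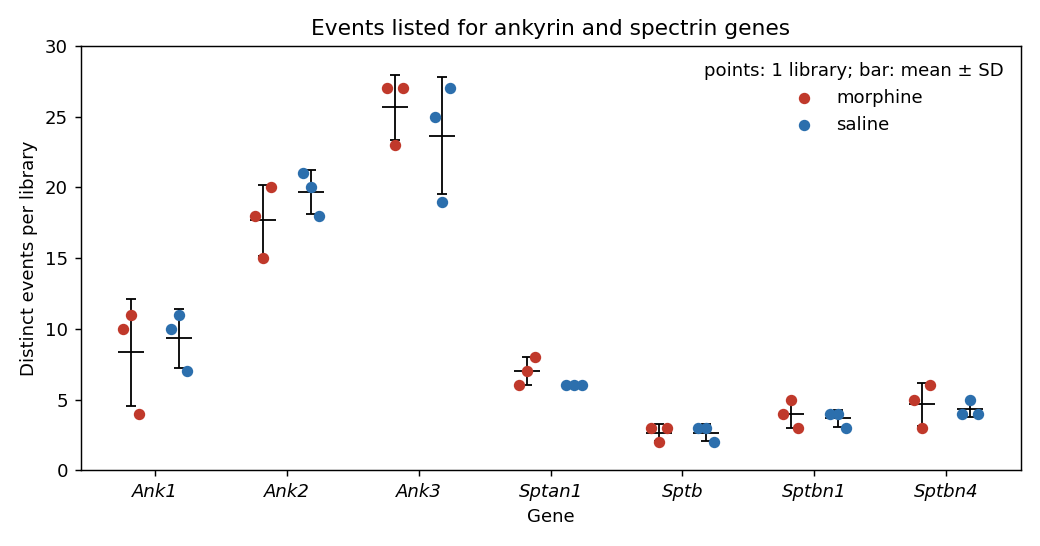
Distinct events per library for each gene, with 1 point per library, morphine left of saline, and the mean ± SD as bars. In no gene are the groups separate, from Sptb with 2 or 3 events to Ank3 with 19 to 27.

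Single events did not separate the groups either. Events present in every morphine library and absent from every saline library were 0 of 108, where the share over all genes' events was 0.321%. The reverse also held for 0 of 108, against 0.345% over all genes. At shares this small, a count of 0 among 108 events says little about these genes. The nearest were 3 last exons of Ank3 in all 3 morphine libraries and 1 saline library, and 2 exon ends of Ank1 in 2 saline and 0 morphine libraries. The Ank3 last exon beginning at 69595050 lies between the first exons ending at 69534284 and 69706925. It does not end an annotated transcript, and was also in saline replicate 3. The last exon at 69986083 is a 28-base end at the upstream start of the giant exon, annotated in Ank3-238, and that at 69999355 ends the annotated transcripts Ank3-224 and Ank3-244. Both were also in saline replicate 1. The usual last exon, at 70023832, was in morphine replicates 5 and 6 and in all 3 saline libraries. In Ank1, ends of the exon beginning at 23132097 at positions 23132471 and 23132483 were listed as alternatives to each other in saline replicates 2 and 3. The end at 23132483 does not set the groups apart, since the skipped 387-base exon with the same end was listed in 2 morphine libraries.

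The genes that work with ankyrins and spectrins were taken as 5 lists, 40 genes in all. Limma called 0 of the 40, against 0.638% of all tested genes. Groups did not overlap in 1 of the 40, against 3.07% of all tested genes. That gene was L1cam, a cell adhesion molecule whose tail binds ankyrins. It was listed with 8, 8 and 16 events in the morphine libraries and 3, 7 and 7 in the saline libraries (log2 ratio 0.87, SE 0.46, limma adjusted p = 0.905, exact permutation p = 0.1). Morphine replicate 6 alone had 16. Among the other 12 ankyrin-bound membrane proteins, which include neurofascin, Nrcam and sodium and Kcnq channels of the initial segment, groups overlapped in every gene. Groups also overlapped in all 12 membrane skeleton genes, such as the adducins and tropomodulins, and in all 8 genes of the initial segment and paranode. The same held for all 4 genes of the calpain system, whose proteases cleave spectrin. At an unadjusted p under 0.05 limma found 0 of the 40, against 480 of all 15040 tested genes. The median log2 ratios of these 5 lists lay between -0.05 and 0.04.

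The red blood cell partners of ankyrin-R and βI-spectrin had a different listing, described here after their values were seen. Slc4a1, the anion exchanger that ankyrin-R anchors, had 2 events in each morphine library and was not listed in any saline library (limma adjusted p = 6.05e-06, exact permutation p = 0.1). Both groups have identical counts within them, which leaves limma little spread to weigh. Epb42, a red cell membrane skeleton gene, had 2 events in morphine replicates 4 and 5 and was not listed in the other 4 libraries. The haemoglobin genes were listed in all 6 libraries, and the 8 red cell markers together had 20, 21 and 28 events in morphine and 16, 29 and 23 in saline. Of these 8, 5 were listed in every library. Whether blood content moves with these listings was not tested.

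For each of the 7 genes, the most similar genes across the 6 libraries were sought among those other members and list genes that had a mean of at least 5 events, which left 17 or 18 candidates for each, by Pearson's r of log2(events + 0.5). The highest values were 0.83 between Sptbn1 and Ank1 and 0.82 both between Ank2 and Epb41, a gene of the membrane skeleton, and between Ank2 and Chl1, a cell adhesion molecule. Sptbn4 was most like Nrcam (0.79), Sptb most like Ank2 (0.78), Sptan1 most like L1cam (0.75), Ank1 most like Mtcl1 (0.66) and Ank3 most like Trim46 (0.51). With 6 libraries, these values are a description only.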

How the data were processed

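Each deposited file is a catalogue of transcription and splicing events in 1 library, with type, gene ID, positions, splice pattern and strand, per the file headers. The column headed fpkm in the deposited files holds whole numbers from -24 to 0 and was not used. No source used here names the aligner, assembler, event caller, genome build or depth. Positions were read on GRCm38 because they match exons of GENCODE M21.

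Distinct events (type, splice pattern, strand) were counted per gene and library, without the types ending in OFF, which repeat an event for its partner transcript. All 133 single skipping listings of the 7 genes had such a partner in the same library. An event is annotated when its splice site (first and last exons) or all its exons are in GENCODE M21.

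No expression values were at hand, so limma 3.58.1 in R 4.3.3 (trend, Benjamini-Hochberg) was fitted to log2(events + 0.5) of 15040 genes with a mean of at least 0.5, and tested on simulated data. Of these genes 22.8% had equal counts in all 6 libraries. Exact permutation tests were two-sided. Tables were made with Python 3.11.15.

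Members and lists were chosen with earlier results of these data known. All 7 members are named. Of the lists and markers, genes whose groups do not overlap are named, and so, after its values were seen, is Epb42. The result of 1 listed gene is not reported here. Likeness was sought among genes averaging 5 or more events. Events named are those in all 6 libraries, those separating or nearly separating the groups, skipping events in at least 3 libraries, short skipped exons, and, beyond that rule and after their values were seen, other terminal exons and the exons matched between ankyrin genes. Exons that are only partly coding are not shown as sequence.  The alternatives tried changed which events were counted, the scaling, the pseudocount, the filter, the variance trend and the libraries included.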

Additional observations from a re-analysis of the deposited data

How the results depend on the processing

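The ratio of Sptb is 0 and has no direction. It ran between -0.16 and 0.16 on leaving out each library. For the other 6 genes, 106 of 114 alternative values kept their sign, 2 were 0 and 6 turned, each of the 6 on leaving out 1 library. Both values of 0 were those of Sptbn1, without intron retention and alternative ends and with exact-boundary types only. On leaving out each library in turn the ratio ran between -0.49 (without morphine replicate 5) and 0.18 (without morphine replicate 6) for Ank1, between -0.021 (without saline replicate 2) and 0.23 for Ank3, between -0.060 (without morphine replicate 5) and 0.27 for Sptbn1, and between -0.13 (without morphine replicate 6) and 0.31 for Sptbn4. It was also below 0 for Sptbn1 without saline replicate 3 (-0.024) and for Sptbn4 without morphine replicate 4 (-0.013). The smallest adjusted p of any was 0.602 and the smallest unadjusted p 0.02, and limma called 0 of 7 genes under every alternative. Genes that did not overlap numbered 0 to 1 when 1 library was left out (Sptan1, without morphine replicate 4) and 0 otherwise. Events in all morphine and no saline libraries numbered 0 to 2, and the reverse 0 to 2, when 1 library was left out, with 2 and 2 without saline replicate 1 and 1 and 0 without saline replicate 3. These counts are partly set by the smaller groups. Leaving out events on the opposite strand was chosen after seeing the data. It changed no call and gave 0.28 for Sptbn1 and 0.14 for Sptan1. Over all alternatives the ratio of Ank2 ran between -0.25 and -0.048 (without morphine replicate 5), and that of Sptan1 between 0.069 (annotated events only) and 0.32 (first and last exons only). No paired analysis was possible because the groups share no replicate numbers. Depth is unknown and may limit which events are listed.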

Other observations

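Of the 108 events, 3 were listed on the strand opposite to their gene: the 56-base skipped exon and the last exon at 30279440 under Sptbn1, and a last exon at 30031150 of chromosome 2 under Sptan1 in morphine replicate 6. That Sptan1 library listed 0 last exons on the gene's own strand.

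First and last exons of the 7 genes were listed 174 times over the 6 libraries, and in 121 of these (69.5%) both ends of the exon were those of an annotated exon, against 57.5% over all genes. The outer ends of such exons are then positions of the annotation, and whether the reads set them was not tested.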
